A study of Mus musculus with 12 samples.

Results

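The 8 genes described here encode 3 chemokines (Ccl2, Ccl8 and Cxcl10), 3 markers of macrophages (Lyz2, Csf1r and Cd68), the pan-leukocyte surface protein CD45 (Ptprc) and a chain of the T cell receptor complex (Cd3e). They were taken by symbol from the deposited expression table, in which all 8 of the 8 were found among 23235 genes. The samples were spermatocytes, the germ cells that pass through meiosis, of C57BL/6 mice. Cells at 2 stages of the first meiotic prophase were collected by fluorescence-activated cell sorting, leptotene/zygotene (LZ) and pachytene (P). At each stage the cells were labelled either as wild type (WT) or as a knock-out (KO) of Rnaseh1. This gave 4 groups of 3 libraries, 12 in all: WT LZ, KO-labelled LZ, WT P and KO-labelled P. Rnaseh1 encodes RNase H1, which cuts RNA that is paired with DNA. Age, the allele, any Cre driver and the number of animals or cells per library are not given in the sources used here. The labels do not say that replicates came from separate animals, so p-values measure the spread between these libraries, which may be technical.

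Chemokines are small secreted proteins that draw leukocytes along a gradient. Ccl2 and Ccl8 belong to the CC class and act on receptors of monocytes and other leukocytes, and Cxcl10 is a CXC chemokine that interferons induce and that attracts T cells through Cxcr3. Csf1r is the receptor for the growth factors Csf1 and Il34, on which macrophages depend. Lyz2 encodes lysozyme M, and Cd68 a glycoprotein of macrophage lysosomes. Ptprc encodes a tyrosine phosphatase carried by nearly all leukocytes. Cd3e encodes the epsilon chain of CD3, the signalling part of the T cell receptor. In the testis, resident macrophages lie mostly in the interstitium beside the steroid-producing Leydig cells and around the seminiferous tubules, whereas meiotic germ cells develop inside the tubules.

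Promoters of 6 of the 8 genes, 7 windows in all, were in the RefSeq promoter table (build GRCm38.p6), and 3 of them are shown because their genes behaved differently below: Ccl8 had the most variable level, Cxcl10 was among the genes higher in KO-labelled P libraries, and Cd3e was the gene that moved the other way between stages. Each line gives the 250 bases before the transcription start, read 5′ to 3′ on the strand of the gene, with the matches of the motifs searched in capitals.

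Ccl8, chr11:82114935-82115184, plus strand: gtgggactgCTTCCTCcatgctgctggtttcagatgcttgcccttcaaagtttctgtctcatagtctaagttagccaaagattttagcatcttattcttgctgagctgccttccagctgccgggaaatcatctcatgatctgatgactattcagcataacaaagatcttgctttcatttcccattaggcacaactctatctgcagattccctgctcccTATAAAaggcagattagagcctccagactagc

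Cxcl10, chr5:92348890-92349139, minus strand: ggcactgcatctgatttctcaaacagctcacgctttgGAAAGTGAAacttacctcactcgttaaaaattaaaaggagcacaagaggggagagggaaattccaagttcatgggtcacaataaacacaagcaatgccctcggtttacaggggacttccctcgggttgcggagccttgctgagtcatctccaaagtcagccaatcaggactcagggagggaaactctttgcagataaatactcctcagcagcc

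Cd3e, chr9:45009612-45009861, minus strand: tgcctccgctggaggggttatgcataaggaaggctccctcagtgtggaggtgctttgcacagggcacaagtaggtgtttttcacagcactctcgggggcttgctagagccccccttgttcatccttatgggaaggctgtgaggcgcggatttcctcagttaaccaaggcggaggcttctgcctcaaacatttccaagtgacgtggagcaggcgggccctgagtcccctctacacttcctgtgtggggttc

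The search covered both strands of 300-base windows, which end 50 bases after the start. The Ccl8 promoter held the TATA form TATAAA at position -32 from the start and the PU.1 form GAGGAAG, on the minus strand, at position -241. PU.1 is a transcription factor of myeloid cells. TATAAA was in 13.6% of the 32851 promoters of the table and GAGGAAG likewise in 13.6%. The Cxcl10 promoter held the interferon response form GAAANNGAA at position -213, which 8.56% of all promoters held. The NF-kB form GGGNNTTTC, found in 4.36% of all promoters, was in 0 of the 7 windows, and the Cd3e window held none of the 4 forms. Other spellings of NF-kB sites were not searched, so the count of 0 does not show that the windows lack such sites. These matches describe letters in the windows only.

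Values are spike-in-scaled FPKM (fragments normalised to transcript length and to the mapped fragments of the library, which the authors then scaled by RNA standards added to each sample). The factors recovered from the digits of the values ran from 0.528 to 1.00 in LZ, from 3.91 to 4.91 in WT P and from 5.55 to 7.82 in KO-labelled P libraries. Most genes were therefore higher at P on this scale, and changes are also given after median-ratio scaling, which sets the typical gene equal between libraries (each is divided by the median, over genes, of its value relative to that gene's geometric mean). The sorted stage was checked with marker lists. Summed pachytene markers were 1320 to 3386 in LZ and 27957 to 78315 in P libraries. Summed leptotene and zygotene markers were 1521 to 3017 in LZ and 6765 to 9422 in P libraries, an order that turned after median-ratio scaling. Summed round spermatid markers were 14586 to 31636 in WT LZ, 783 to 5446 in KO-labelled LZ, 37022 to 45044 in WT P and 1766 to 9430 in KO-labelled P libraries, and their stage order turned likewise. Rnaseh1 itself was 16.1 to 20.5 in WT LZ, 11.0 to 18.3 in KO-labelled LZ, 51.7 to 56.8 in WT P and 68.9 to 94.3 in KO-labelled P libraries, so its level per gene was not lower in the KO-labelled P libraries. The sources used here do not give the deleted stretch, and KO-labelled below refers to the label.

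WT LZ replicate 1 and WT P replicate 1 stood apart in leukocyte genes. WT LZ replicate 1 was the highest of its 3 libraries in 23 of the 31 other macrophage and pan-leukocyte genes tested, against 57.5% of all genes. For example, the invariant chain gene Cd74 was 61.8 in that library and at most 1.00 in the other 5 LZ libraries. WT P replicate 1 was the lowest of its 3 libraries in 27 of the same 31 genes and in 6 of the 8 genes described here, against 38.2% of all genes. The complement gene C1qc was 21.6 in WT P replicate 1, and 189 and 87.9 in WT P replicates 2 and 3. Results that rest on these WT libraries are given with and without them. KO-labelled P replicate 1 was the lowest of its 3 libraries in 5 of the 8 genes and in 12 of the 31, against 20.3% of all genes. After median-ratio scaling it was the lowest in 7 of the 8 and in 17 of the 31, against 34.1% of all genes. In these bulk samples, fewer cells of a type and less RNA per cell cannot be told apart.

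**Figure D1:**
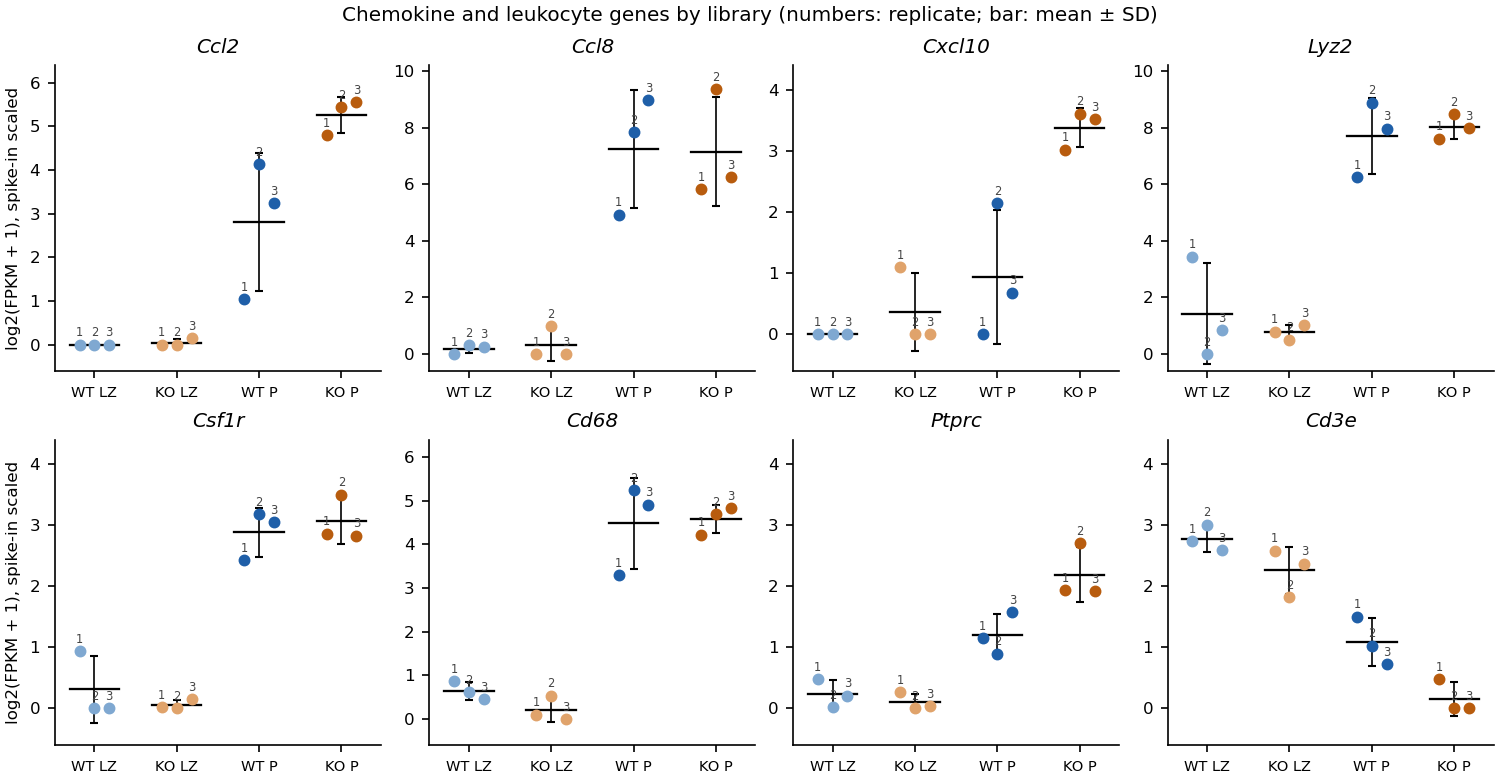
Level of each of the 8 genes in each library as log2(FPKM + 1) on the spike-in scale (vertical axis), by group (horizontal axis), with points numbered by replicate and bars at the mean ± SD of 3 libraries. Ccl2, Ccl8, Csf1r, Cd68, Lyz2 and Ptprc are higher in every P library than in every LZ library, and Cd3e is lower in every P library than in every LZ library.

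The first comparison was between stages. In WT, 6 of the 8 genes rose from LZ to P and 1 fell on the spike-in scale. The backgrounds were 80.9% of the 15400 genes tested called higher and 0.487% called lower, so a rise on this scale was the common case and a fall was rare. In KO-labelled libraries 7 rose and 1 fell, beside 76.8% and 2.83% of all genes. After median-ratio scaling 5 rose and 1 fell in WT, where 20.4% of all genes were called higher and 17.8% lower. On that scaling 7 rose and 1 fell in KO-labelled libraries, with 31.7% and 29.3% of all genes called. On the spike-in scale the 8 genes had a median log2 change of 2.69 (WT) and 3.69 (KO-labelled), beside 1.64 and 2.29 over all genes tested. All 8 genes passed the filter on low values (3 or more of the libraries at 1 or above), but 5 of them (Ccl2, Ccl8, Csf1r, Cd68 and Ptprc) passed through P libraries alone. Cxcl10, with 1 LZ library at 1 or above, and Lyz2, with 2, would not have passed without P libraries. Cd3e, with 2 P libraries at 1 or above, would not have passed without LZ libraries. The direction of all 8 between stages was thus in part set by the filter.

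Among the chemokines, Ccl2 was listed at 0 in 5 of the 6 LZ libraries and at 0.111 in KO-labelled LZ replicate 3. Its values were 1.07, 16.6 and 8.48 in the WT P libraries and 26.8, 42.5 and 45.8 in the KO-labelled P libraries. Every P library lay above every LZ library, and every KO-labelled P library above every WT P library. The log2(value + 1) of Ccl2 rose by 2.81 in WT (SE 0.56, adjusted p = 0.000385 by limma) and by 5.21 in KO-labelled libraries (SE 0.56, adjusted p = 6.88e-07). After median-ratio scaling the rises were 1.98 (adjusted p = 0.0104) and 3.74 (adjusted p = 7.98e-05). The WT P libraries differed from each other by 15.5 times between the highest and the lowest.

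Ccl8 had the widest spread of the 8 genes among P libraries. In LZ it was listed at 0, 0.232 and 0.196 in WT, and at 0, 0.980 and 0 in KO-labelled libraries. At P it was 29.4, 229 and 502 in WT and 55.8, 656 and 74.6 in KO-labelled libraries. The lowest P library was above all LZ libraries, while the P libraries of the 2 genotypes overlapped throughout. The rise was 7.06 on the log2(value + 1) scale in WT (SE 0.94, adjusted p = 1.05e-05) and 6.81 in KO-labelled libraries (SE 0.94, adjusted p = 9.66e-06), and 5.79 and 5.02 after median-ratio scaling, both called. Within groups, the highest P library exceeded the lowest by 17.1 times in WT and 11.8 times in KO-labelled libraries.

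Cxcl10 stayed low in WT at both stages. It was listed at 0 in all 3 WT LZ libraries, and at 1.13, 0 and 0 in the KO-labelled LZ libraries. At P it was 0, 3.43 and 0.600 in WT and 7.10, 11.2 and 10.4 in KO-labelled libraries, where the lowest KO-labelled P value exceeded all the other 9 values of the gene. Its log2 change between stages was 0.94 in WT and was not called (SE 0.46, adjusted p = 0.0708 by limma). Without WT P replicate 1, which was listed at 0, the change was 1.41 and was called (adjusted p = 0.0106). In KO-labelled libraries Cxcl10 rose by 3.02 (SE 0.46, adjusted p = 2.59e-05), and by 1.42 after median-ratio scaling (adjusted p = 0.0366). Before the spike-in scaling the change was 0.73 and was not called (adjusted p = 0.125).

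The 3 macrophage genes all rose between stages. Their LZ values were about 1 or below, apart from Lyz2 in WT LZ replicate 1. The size of each rise in log2(value + 1) thus depends largely on the level at P. Lyz2 was 9.81, 0 and 0.777 in WT LZ and 0.727, 0.423 and 1.01 in KO-labelled LZ libraries. At P it was 75.1, 469 and 249 in WT and 195, 352 and 250 in KO-labelled libraries. The highest LZ value belonged to WT LZ replicate 1, which also stood apart in other leukocyte genes, and still lay below all P libraries. Lyz2 rose by 6.28 in WT (SE 0.74, adjusted p = 3.67e-06) and by 7.25 in KO-labelled libraries (SE 0.74, adjusted p = 4.44e-07). Without WT LZ replicate 1 and WT P replicate 1 the directions and the calls of both stage comparisons held for all 3 macrophage genes.

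Csf1r was lower in level than Lyz2, which FPKM allows to be compared since it is per length of transcript. It was 0.922, 0 and 0 in WT LZ, 0.0153, 0 and 0.109 in KO-labelled LZ, 4.38, 8.09 and 7.25 in WT P and 6.27, 10.3 and 6.11 in KO-labelled P libraries. All 6 P libraries exceeded all 6 LZ libraries, and the highest exceeded the lowest P library by 1.84 times in WT and by 1.69 times in KO-labelled libraries. The rises were 2.57 in WT (SE 0.32, adjusted p = 5.86e-06) and 3.01 in KO-labelled libraries (SE 0.32, adjusted p = 6.57e-07). After subtracting the median change of all genes these were 0.93 and 0.71. The difference in log2(value + 1) between Lyz2 and Csf1r within a library changed by 3.70 in WT and by 4.24 in KO-labelled libraries between stages, without overlap (exact two-sided permutation p = 0.1 in each). With both genes low in most LZ libraries, this change follows largely their levels at P. The Csf1r ligands Csf1 and Il34 also rose in both genotypes. Csf1 was at most 0.170 in LZ libraries, 2.73 to 4.18 in WT P and 1.13 to 1.90 in KO-labelled P libraries. It was lower in KO-labelled P libraries (change -0.87, adjusted p = 0.0170 by limma), also after median-ratio scaling (change -0.77, adjusted p = 0.0255). Il34 was at most 0.751 in LZ libraries, 1.91 to 5.91 in WT P and 6.24 to 11.0 in KO-labelled P libraries, and was higher in the latter on the spike-in scale (change 1.28, adjusted p = 0.0169). After median-ratio scaling neither the change of Il34 at P (0.77) nor its stage change in WT (0.44) was called, and the stage change of Csf1 in KO-labelled libraries (0.47) was not called.

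Cd68 was 0.819, 0.531 and 0.375 in WT LZ and 0.0701, 0.449 and 0 in KO-labelled LZ libraries. It was 8.81, 36.6 and 29.1 in WT P and 17.7, 24.9 and 27.3 in KO-labelled P libraries. No LZ library reached 1, and no P library was below 8. The rise of 3.83 in WT (SE 0.42, adjusted p = 1.69e-06) was larger than that of 98.3% of all genes tested, and the rise in KO-labelled libraries was 4.37 (SE 0.42, adjusted p = 2.01e-07). After median-ratio scaling Lyz2 rose by 4.72 and 4.98, Csf1r by 1.54 and 1.73 and Cd68 by 2.41 and 2.70 in WT and KO-labelled libraries, all called.

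Ptprc was the lowest in level of the genes that rose in both genotypes. It was 0.392, 0.0141 and 0.154 in WT LZ, 0.201, 0 and 0.0264 in KO-labelled LZ, 1.21, 0.863 and 1.97 in WT P and 2.81, 5.52 and 2.78 in KO-labelled P libraries. On the spike-in scale the 4 groups formed 3 levels without overlap: LZ of both genotypes, WT P and KO-labelled P. After median-ratio scaling WT P (0.437 to 0.788) overlapped LZ (up to 0.622 in WT and 0.607 in KO-labelled libraries). KO-labelled P (0.912 to 1.93) stayed above the other groups. In WT the log2(value + 1) of Ptprc rose by 0.97 (SE 0.28, adjusted p = 0.00570). That was -0.67 after subtracting the median change of all genes, 1.64. On this scale values of at most 1.97 could not have risen by that median even from 0. The sign of -0.67 was thus fixed by the low level of the gene. Median-ratio scaling gave a change of 0.28, which was not called (adjusted p = 0.436). In KO-labelled libraries it rose by 2.08 (SE 0.28, adjusted p = 7.31e-06), or -0.21 after the same subtraction, and by 0.93 after median-ratio scaling (adjusted p = 0.00864).

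Cd3e moved the other way. It was 5.65, 7.05 and 5.04 in WT LZ, 4.99, 2.54 and 4.16 in KO-labelled LZ, 1.83, 1.04 and 0.654 in WT P, and 0.397, 0 and 0 in KO-labelled P libraries. Each LZ library was above each P library. On the log2(value + 1) scale it fell by 1.69 in WT (SE 0.29, adjusted p = 0.000112) and by 2.1 in KO-labelled libraries (SE 0.29, adjusted p = 1.07e-05). Only 0.149% of all genes tested had a lower change in WT. After median-ratio scaling the falls were larger, at -2.99 in WT (adjusted p = 3.39e-05) and -3.49 in KO-labelled libraries (adjusted p = 1.67e-06).

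The partner chains of Cd3e in the CD3 complex did not follow it. Cd3d, the delta chain, was 6.51, 4.24 and 2.62 in WT LZ, 1.90, 1.18 and 0.828 in KO-labelled LZ, 22.9, 35.4 and 35.1 in WT P and 50.4, 46.5 and 37.3 in KO-labelled P libraries, and it rose in both genotypes. Cd3g, the gamma chain, was 1.84 in WT LZ replicate 1 and listed at 0 in the other 5 LZ libraries, and was 1.57 to 13.7 in P libraries, where it was also called higher. After median-ratio scaling Cd3d changed by 0.75 in WT (adjusted p = 0.0692, not called) and by 1.89 in KO-labelled libraries (called), and Cd3g by 0.70 (not called) and 1.83 (called). The difference in log2(value + 1) between Cd3e and Cd3d within a library went from 0.39 in WT LZ to -3.89 in WT P and from 1.08 to -5.34 in KO-labelled libraries. Groups did not overlap in either case, and the exact two-sided permutation p was 0.1, which is the minimum for 3 libraries against 3. Cd4 and Cd5, further T cell markers, were at 0 in all 6 LZ libraries, in which Cd3e was 2.54 to 7.05. Most of the list was not at 0 there. Of 14 T cell markers, 3 were at 0 in all WT LZ libraries and 5 in all KO-labelled LZ libraries. Summed without Cd3e, the list was 4.64 to 16.3 in WT LZ and 1.41 to 5.55 in KO-labelled LZ libraries.

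**Figure D2:**
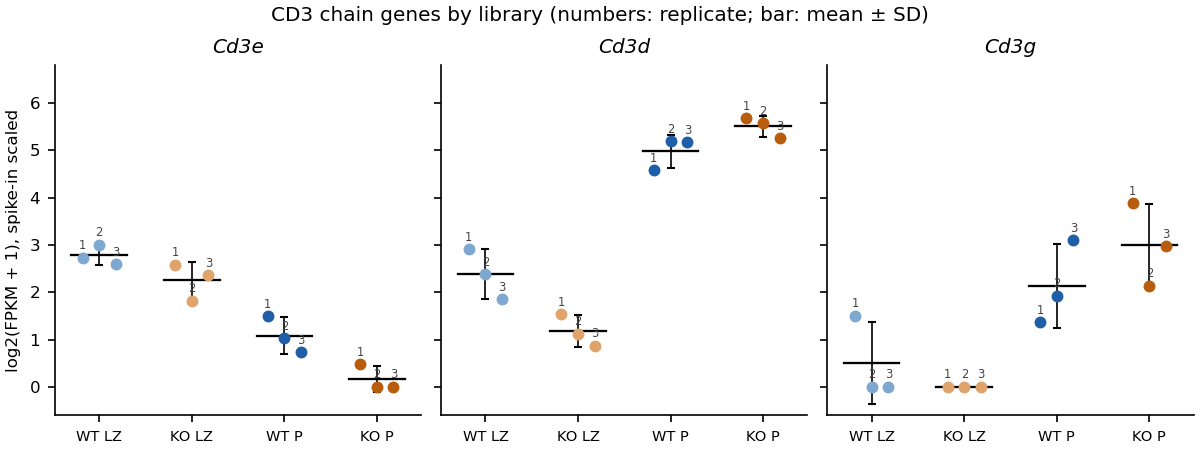
Levels of the 3 CD3 chain genes in each library as log2(FPKM + 1) on the spike-in scale (vertical axis), by group (horizontal axis), with points numbered by replicate and bars at the mean ± SD of 3 libraries. Cd3e is lower at P than at LZ in both genotypes, whereas Cd3d is higher at P and Cd3g is at 0 in 5 of 6 LZ libraries.

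The next comparison was between genotypes at P, and asks how the knock-out label changed levels in cells of the same stage. On the spike-in scale 3 of the 8 genes were higher in KO-labelled libraries (Ccl2, Cxcl10 and Ptprc) and 1 was lower (Cd3e), beside 24.6% of all genes tested called higher and 14.3% lower. Both shares of the 8 genes thus lay near the background. Cxcl10 and Ptprc passed the filter only with the KO-labelled P libraries counted, so their direction here was in part set by the filter. After median-ratio scaling 1 was higher (Ccl2) and 0 lower, beside 3.57% and 9.62% of all genes. Over all genes tested the median change was 0.37 on the first scale and 0.05 on the second.

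Ccl2 was higher in KO-labelled P libraries by 2.45 on the log2(value + 1) scale (SE 0.56, adjusted p = 0.0110 by limma), at means of 38.4 ± 10.1 against 8.71 ± 7.76 (SD, n = 3). It was also higher after median-ratio scaling, by 1.87 (SE 0.52, adjusted p = 0.0373), where the values were 8.70, 14.9 and 18.7 against 0.503, 8.40 and 3.39. Before the spike-in scaling the change was 1.36 and just missed the call (adjusted p = 0.0544). The lowest KO-labelled library exceeded the highest WT library on the spike-in scale and after median-ratio scaling. Leaving out any 1 library left the change between 1.57 and 3.12, and it was called each time.

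Cxcl10 was higher by 2.44 (SE 0.46, adjusted p = 0.00490), at means of 9.57 ± 2.17 against 1.34 ± 1.83 (SD, n = 3). After median-ratio scaling its values were 2.30, 3.91 and 4.26 against 0, 1.74 and 0.240, still without overlap, but the change of 1.55 was not called (adjusted p = 0.0746). In the GENCODE M21 annotation 133 of the 2252 exon bases of Cxcl10 lie opposite an exon of Art3, a gene of the ADP-ribosyltransferase family, and whether counting used the strand is not stated. Art3 was 826 to 1210 in WT P and 1407 to 2526 in KO-labelled P libraries, and 29.4 to 115 in LZ libraries. Cxcl10 was listed at 0 in WT P replicate 1, in which Art3 was 826. The difference between the log2 values of Cxcl10 and Art3 did not separate the genotypes at P (exact permutation p = 0.2), and the part of Art3 in the Cxcl10 values was not tested.

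Ptprc was higher in KO-labelled P libraries by 0.98 (SE 0.28, adjusted p = 0.0211), at 3.70 ± 1.57 against 1.35 ± 0.567 (SD, n = 3). This call was lost without WT P replicate 1 (adjusted p = 0.0589), WT P replicate 2 (0.0703) or KO-labelled P replicate 2 (0.0838), with a pseudocount of 0.1 (0.124) and after median-ratio scaling, where the change was 0.52 (adjusted p = 0.185). Cd3e was lower by 0.92 on this scale (change -0.92, SE 0.29, adjusted p = 0.0286), at 0.132 ± 0.229 against 1.17 ± 0.599. Summed over 6 genes, spermatogonia markers were also lower there, at 403 to 514 in WT P and 37.8 to 124 in KO-labelled P libraries, without overlap (log2 ratio of means -2.34, and -2.64 after median-ratio scaling, exact two-sided permutation p = 0.1 each), and 5 of the 6 were called lower. Round spermatid sums (log2 ratio of means -2.72) and peritubular and endothelial sums (-1.74) were also lower in KO-labelled P libraries, without overlap. On the spike-in scale the spermatogonia sum hardly differed between the WT stages (log2 ratio of means -0.0027, with overlap), where Cd3e changed by -1.69. That sum was lower at P in KO-labelled libraries (-1.39), and in both genotypes after median-ratio scaling. The part of any of these cells in the level of Cd3e was not tested. The call of Cd3e was lost in 5 of the 6 fits without 1 P library, all but the one without WT P replicate 3, and after median-ratio scaling the change was -0.56 (adjusted p = 0.164).

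The other 4 genes were not called between genotypes at P. Their log2 changes were -0.11 for Ccl8 (SE 0.94), 0.32 for Lyz2 (SE 0.74), 0.18 for Csf1r (SE 0.32) and 0.10 for Cd68 (SE 0.42). The 3 macrophage genes turned to -0.03, -0.11 and -0.23 after median-ratio scaling, and to -0.41, -0.05 and -0.49 without WT P replicate 1. Their means were nearly equal: Lyz2 was 264 ± 198 in WT and 265 ± 79.8 in KO-labelled, Csf1r 6.57 ± 1.94 and 7.56 ± 2.38, and Cd68 24.8 ± 14.4 and 23.3 ± 5.03 (SD, n = 3). These SEs are wide, and a missed call does not show equal levels.

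**Figure D3:**
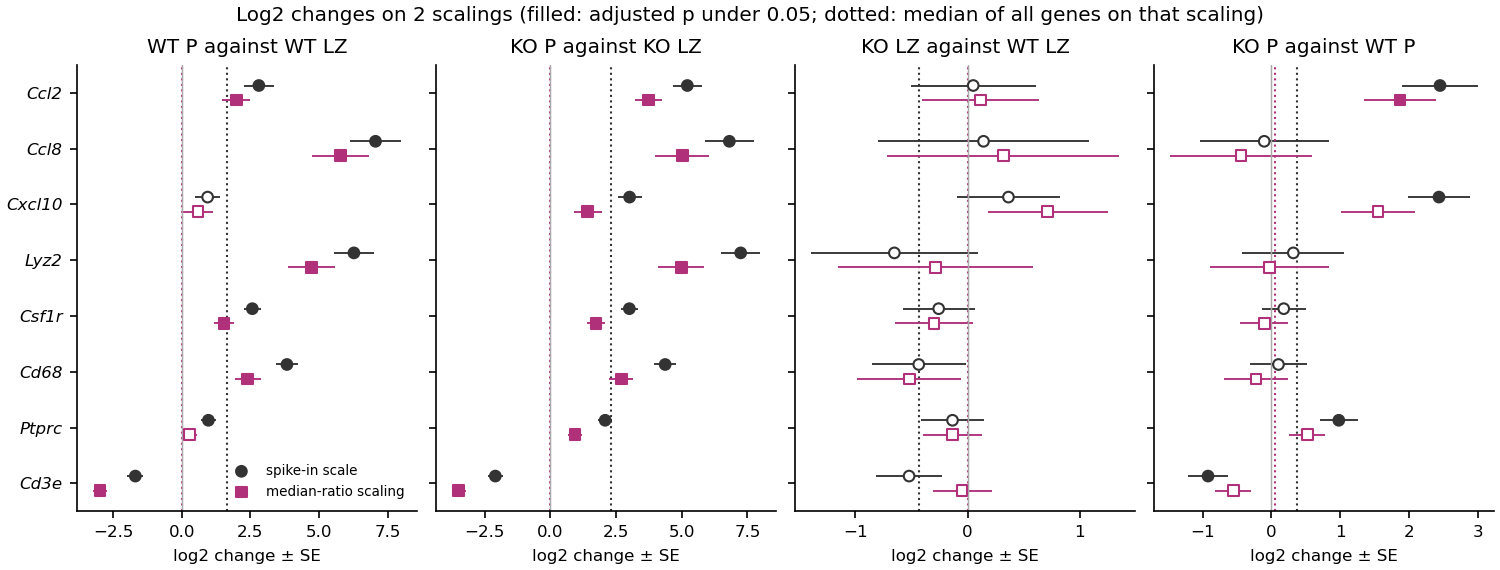
Log2 changes ± SE (horizontal axis) of the 8 genes (vertical axis) in 4 comparisons, on the spike-in scale (circles) and after median-ratio scaling (squares), with filled symbols for adjusted p under 0.05, a solid line at 0 and dotted lines at the median of all genes tested. In KO P against WT P, Ccl2 is filled on both scalings, Cxcl10, Ptprc and Cd3e on the spike-in scale alone, and in KO LZ against WT LZ no symbol is filled.

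Ccl2 and Ccl8 lie in one cluster of CC chemokine genes on chromosome 11, in the order Ccl2, Ccl7, Ccl11, Ccl12 and Ccl8 in RefSeq. Ccl7, a monocyte attractant, was listed at 0 in all LZ libraries and was 1.08, 10.8 and 19.9 in WT P and 50.2, 24.3 and 23.6 in KO-labelled P libraries. Ccl12, also a monocyte attractant, was 5.82, 30.1 and 29.1 in WT P and 42.8, 93.9 and 56.3 in KO-labelled P libraries. Both were higher in KO-labelled P libraries on the spike-in scale, Ccl7 by 1.99 (adjusted p = 0.0270) and Ccl12 by 1.74 (adjusted p = 0.0196). After median-ratio scaling the changes were 1.44 for Ccl7 (adjusted p = 0.0831) and 1.33 for Ccl12 (adjusted p = 0.0866), and neither was called. On the spike-in scale the KO-labelled P libraries were all above the WT P libraries in Ccl2, Ccl7 and Ccl12, and not in Ccl8. After median-ratio scaling this held for Ccl2 and Ccl7, while Ccl12 overlapped, with 13.9 in KO-labelled P replicate 1 and 15.2 in WT P replicate 2. The difference between the log2 values of Ccl2 and Ccl8 within a library was -4.44 in WT P and -1.88 in KO-labelled P libraries and did not separate the genotypes (exact two-sided permutation p = 0.3).

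**Figure D4:**
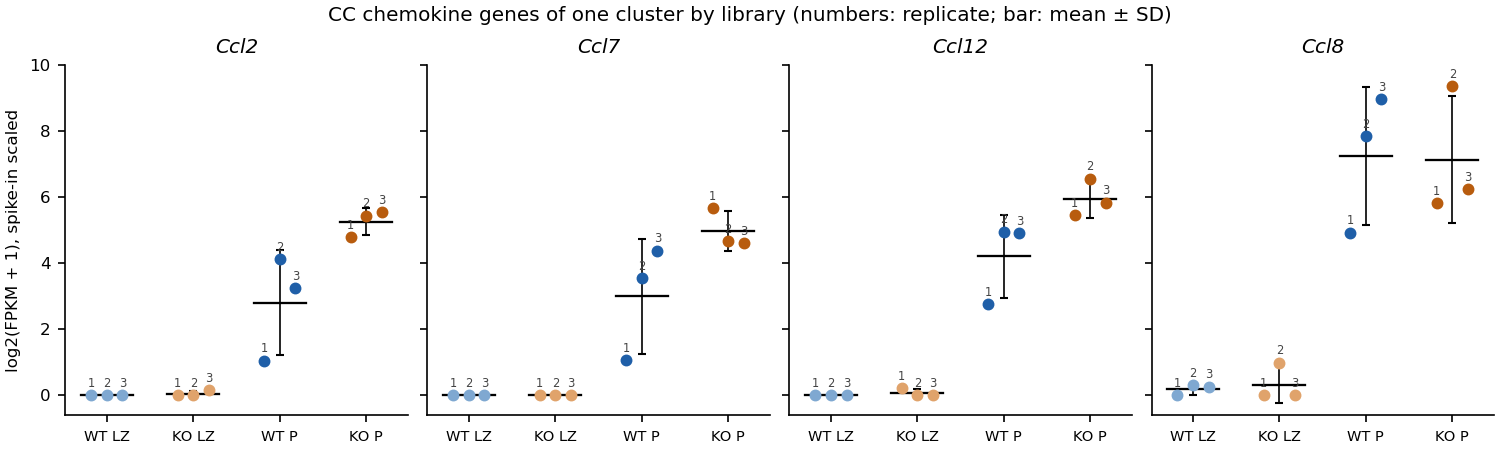
Levels of 4 CC chemokine genes in each library as log2(FPKM + 1) on the spike-in scale (vertical axis), by group (horizontal axis), with points numbered by replicate and bars at the mean ± SD of 3 libraries. The 3 KO-labelled P libraries are above the 3 WT P libraries in Ccl2, Ccl7 and Ccl12, while those of Ccl8 run from 55.8 to 656 beside 29.4 to 502 in WT.

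Between genotypes at LZ none of the 8 genes was called by limma (0 of 8), beside 0.136% of all genes tested called higher and 12.9% called lower. The lowest adjusted p was 0.223, for Cd3e, whose change was -0.52 (SE 0.29) and whose 3 KO-labelled libraries all lay below the 3 WT libraries. After median-ratio scaling its change was -0.05 and the groups overlapped. The other 7 genes were too low at LZ for a comparison of levels: apart from Lyz2 in WT LZ replicate 1, none exceeded 1.13. Lyz2 changed by -0.65 with that library and by 0.35 without it, and Csf1r by -0.26 and 0.06, none of them called.

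The difference of the genotype effects between the stages was called higher for 3 of the 8 genes, Ccl2, Cxcl10 and Ptprc, on the spike-in scale, where 34.9% of all genes were called higher. After median-ratio scaling it was called for 0 of the 8, beside 2.37% of all genes called higher. Since the 3 genes were at or near 0 in LZ libraries of both genotypes, this difference was close to their genotype difference at P. For Cxcl10 and Ptprc the limit from the filter applies here too. Leaving out single libraries lost the call in 4 of the 12 fits for Ccl2, 3 for Cxcl10 and 9 for Ptprc.

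The order of levels within a group was read from medians. In WT P libraries it ran Lyz2 (249), Ccl8 (229), Cd68 (29.1), Ccl2 (8.48), Csf1r (7.25), Ptprc (1.21), Cd3e (1.04) and Cxcl10 (0.600), and of the neighbours in this order only Csf1r and Ptprc did not overlap. In KO-labelled P libraries it ran Lyz2 (250), Ccl8 (74.6), Ccl2 (42.5), Cd68 (24.9), Cxcl10 (10.4), Csf1r (6.27), Ptprc (2.81) and Cd3e (0). There, Ccl8 and Ccl2, Cd68 and Cxcl10, Csf1r and Ptprc, and Ptprc and Cd3e did not overlap. In LZ libraries of both genotypes Cd3e had the highest median, 5.65 in WT and 4.16 in KO-labelled libraries.

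Other markers gave the setting of these levels. Their counts between stages on the spike-in scale stand beside 80.9% (WT) and 76.8% (KO-labelled) of all genes called higher, and genes that passed the filter through P libraries alone could hardly be called lower. Of 26 macrophage markers, 24 were tested, and 22 rose and 0 fell between the WT stages, with a median change of 3.82 beside 1.64 over all genes. In KO-labelled libraries 23 of the 24 rose. After median-ratio scaling 15 and 16 of the 24 rose and 0 fell. Of the 24, 7 reached 1 in no LZ library. Besides Lyz2, Csf1r and Cd68, the most abundant tested markers of this list were Aif1, Fcgr3 and H2-Ab1. Fcgr3, an Fc receptor, was 147 to 219 in WT P and 288 to 409 in KO-labelled P libraries and 3.85 to 13.4 in LZ libraries. H2-Ab1, an MHC class II gene, was 96.7 to 268 in P and 12.1 to 53.4 in LZ libraries. Aif1 differed from the list: it was 145 to 327 in 4 of the 6 LZ libraries, its change of 1.20 between the WT stages was not called (adjusted p = 0.0881), and it was lower in KO-labelled P libraries by limma (change -1.77, adjusted p = 0.0396). Lyz1, the paralog next to Lyz2, was 10.3 to 56.2 in P libraries. The ratio of Lyz2 to Lyz1 was 7.0 to 8.82 there, and 5.96% of the 75-base words of Lyz2 transcripts also occur in Lyz1, so the split of reads between the pair is uncertain.

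Of 11 pan-leukocyte markers, all tested and with Ptprc among them, 10 rose in WT and 11 in KO-labelled libraries, and 4 and 9 did so after median-ratio scaling. Of the 11, 3 reached 1 in no LZ library. Cd52 was 32.3, 91.6 and 60.2 in WT P and 67.0 to 108 in KO-labelled P libraries, and at most 2.64 in LZ libraries other than WT LZ replicate 1, where it was 15.4. Cd48 was 12.0 to 20.2 in P and at most 1.02 in LZ libraries. Vav1, a signalling protein of blood cells, was 27.0 to 83.8 in P and 1.68 to 7.83 in LZ libraries. Of 14 T cell markers 8 were tested, of which 5 rose and 1 fell (Cd3e) in both genotypes, a smaller share of rises than among all genes. After median-ratio scaling 1 rose and 1 fell in WT, and 4 rose and 1 fell in KO-labelled libraries. Lck, the kinase that acts on CD3 chains, was 8.26 to 25.4 in P and at most 1.66 in LZ libraries.

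Among 37 chemokine ligands, 23 were tested, of which 18 rose in WT and 20 in KO-labelled libraries, with 0 lower. After median-ratio scaling 12 and 13 rose. Of the 23, 12 reached 1 in no LZ library. At P, 7 of the 23 were higher in KO-labelled libraries on the spike-in scale, with 0 lower, beside 24.6% and 14.3% of all genes. After median-ratio scaling 1 (Ccl2) was higher, beside 3.57% of all genes. The shares called higher thus lay near the background. The most abundant ligands were Ccl27a, at 1101 to 2722 in P and 71.6 to 215 in LZ libraries, Ccl25, at 126 to 301 in P and 12.2 to 21.0 in LZ libraries, and Pf4, a platelet chemokine, at 27.7 to 175 in P and at most 0.371 in LZ libraries. Of 23 chemokine receptors 12 were tested, and 7 rose in WT and 9 in KO-labelled libraries, in both cases a smaller share than among all genes. After median-ratio scaling 0 rose and 1 fell in WT, and 2 rose and 2 fell in KO-labelled libraries, and 6 of the 12 reached 1 in no LZ library. Cxcr2 was the most abundant of them at both stages, at 32.4 to 101 in LZ and 77.1 to 161 in P libraries. Its direction between stages turned with the scaling: in WT it rose by 0.80 on the spike-in scale (adjusted p = 0.0129) and its change was -1.23 after median-ratio scaling (adjusted p = 0.00372). Cx3cr1, the receptor of fractalkine, was 1.19 to 3.58 in WT P and 5.96 to 7.50 in KO-labelled P libraries, and Ccr4 was 2.39 to 3.86 in P libraries.

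Of the smaller lists, 5 of 9 B and NK cell markers, 2 of 9 granulocyte and mast cell markers, 4 of 8 inflammatory cytokines and 1 of 5 red blood cell markers were tested. Between the stages in WT, 4, 2, 3 and 1 of them rose and none fell on the spike-in scale, and 1, 1, 1 and 0 rose after median-ratio scaling. Of those tested, 4, 1, 3 and 0 reached 1 in no LZ library. Nkg7, a granule protein of NK and cytotoxic T cells, was 3.36 to 23.3 in P libraries. Gzma, a granule protease of cytotoxic lymphocytes, was 16.0 in KO-labelled P replicate 1 and at most 2.08 elsewhere. Mpo was 8.66 to 25.1 and Csf3r 1.48 to 2.49 in P libraries. Il1a was 14.5 to 24.3, Il1b 0.573 to 5.23 and Il10 at most 2.54 in P libraries. Alas2, a haem synthesis gene of red cells, was 7.27 to 12.0 in WT P and 1.29 to 3.11 in KO-labelled P libraries. The summed red blood cell markers were 61.6 in KO-labelled P replicate 1 and at most 12.0 in the other 11 libraries.

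On the spike-in scale, Leydig cell and peritubular and endothelial markers were higher at P as well. Summed over 7 genes each, Leydig cell markers were 3.38 to 89.1 in LZ and 1242 to 8622 in P libraries, and peritubular and endothelial markers 1.01 to 28.7 in LZ, 509 to 673 in WT P and 156 to 200 in KO-labelled P libraries. Summed over 6 genes, Sertoli cell markers were 17.4 to 89.6 in LZ and 39.0 to 96.7 in P libraries, and did not separate the stages in KO-labelled libraries (log2 ratio of means -0.24, exact two-sided permutation p = 0.8). After median-ratio scaling the order of Sertoli sums between stages turned in WT, with overlap. In KO-labelled libraries the Sertoli sums were then lower at P without overlap (log2 ratio of means -3.16, exact two-sided permutation p = 0.1). Leydig sums did not overlap between stages in either genotype, and peritubular and endothelial sums did not overlap between genotypes at P (exact two-sided permutation p = 0.1 in each case, the smallest possible). All 7 Leydig genes were called higher at P in both genotypes, and 7 (WT) and 5 (KO-labelled) of them after median-ratio scaling. Among the defining Leydig genes, the hormone gene Insl3 was 828 to 8196 in P and 1.74 to 68.0 in LZ libraries. In WT P replicate 1, the lowest library for Lyz2, Csf1r, Cd68 and Ccl2, the Leydig sum was also the lowest of the trio, at 2292 beside 8622 and 7386. In the KO-labelled P libraries, replicate 1 was the lowest for Lyz2, Cd68 and Ccl2 but had the highest Leydig sum, at 5347 beside 5086 and 1242. Csf1r differed on the spike-in scale: it was lowest in replicate 3 (6.11, beside 6.27 and 10.3), which also had the lowest Leydig sum. After median-ratio scaling Csf1r, too, was lowest in replicate 1 (2.03, beside 3.61 and 2.49). The Leydig sum was then highest in replicate 2 (1779, beside 1733 in replicate 1 and 507 in replicate 3). The part of such cells in the levels of the 8 genes was not tested.

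**Figure D5:**
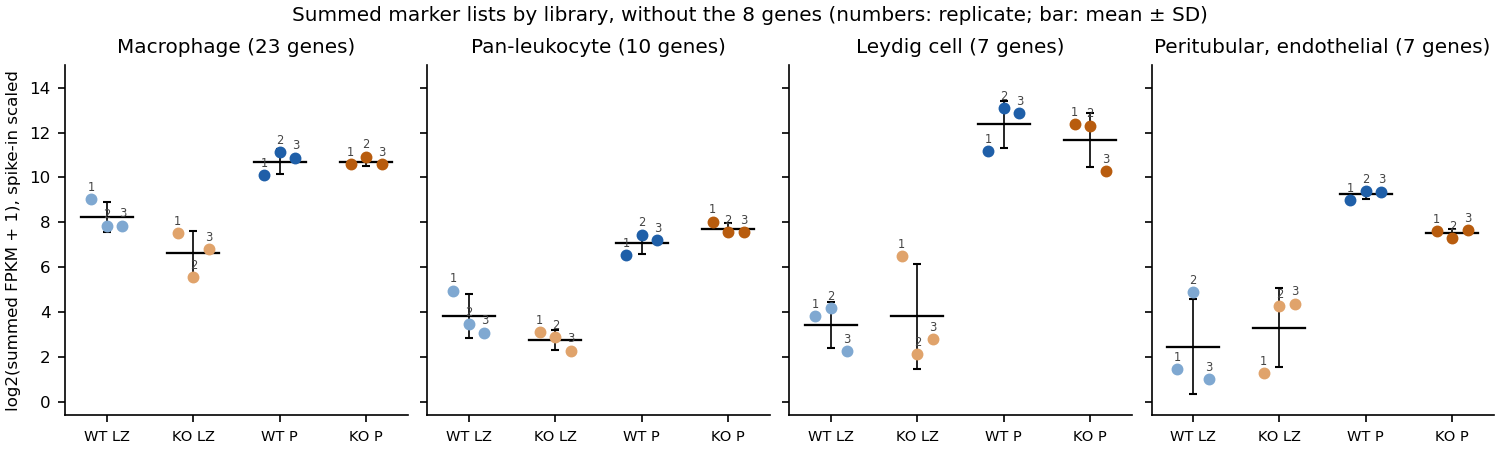
Summed level of 4 marker lists in each library as log2(summed FPKM + 1) on the spike-in scale (vertical axis), by group (horizontal axis), leaving out the 8 genes, with points numbered by replicate and bars at the mean ± SD of 3 libraries. On this scale all 4 sums are higher in every P library than in every LZ library. The peritubular and endothelial sum is lower in all 3 KO-labelled P libraries than in all 3 WT P libraries. After median-ratio scaling (not shown) the macrophage sum overlaps between stages in both genotypes. That sum includes Aif1, which was high in most LZ libraries, and no tested macrophage marker was called lower at P. The pan-leukocyte sum then overlaps in WT, and the peritubular and endothelial sum in KO-labelled libraries.

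The genes with the most similar pattern were sought by Pearson's r of log2(value + 1) after median-ratio scaling over the 12 libraries, as a description, since all genes share the libraries and their stage difference. For Lyz2 they were Csf1r (r = 0.983), the tetraspanin gene Cd53 (0.979) and the complement gene C1qc (0.976), and for Csf1r they were C1qc (0.987), Lyz2 (0.983) and Cd53 (0.976). Cd68 was most like Nucb2 (0.978), Sepp1 (0.974) and Fcgrt (0.973), and Ccl8 most like Sepp1 (0.964), Hao2 (0.957) and Ms4a7 (0.953). Ccl2 was most like its neighbour Ccl12 (0.967), followed by Psmd4 (0.966) and Dnajc30 (0.965). Cxcl10 had lower values, with Cd209f (0.909), Gal3st4 (0.902) and the interferon-induced gene Ifit3 (0.879). Ptprc was most like Polr1a (0.935), Xpo5 (0.933) and Man1a2 (0.927), none of which is a leukocyte marker in the lists used, and Cd3e was most like Stk38l (0.991), Mtdh (0.988) and Sap130 (0.986).

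Further gene models bear on single values. In GENCODE M21, 873 of the 5774 exon bases of Csf1r lie opposite exons of Hmgxb3, which was 22.4 to 23.9 in WT P, 36.5 to 44.1 in KO-labelled P and 1.36 to 6.30 in LZ libraries. Csf1r was listed at 0 in WT LZ replicate 2, where Hmgxb3 was 5.94. For Cd3e, 135 of 4080 exon bases lie opposite the antisense model Gm48719, which is not in the table used here, so reads of the pair cannot be told apart if the strand was not used.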

How the data were processed

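RNA was measured in 12 libraries, 3 per group, by paired-end sequencing of amplified cDNA made from polyadenylated RNA, per the labels' protocols. TopHat2 2.1.1, Cufflinks 2.2.1 and build mm9 are named in the submitters' processing notes. The authors deposited FPKM per gene, which the name of the table says were normalised by ERCC spike-in RNA; the formula, the annotation and the use of strand are not given in the sources used here. The deposited FPKM hold no counts, so depth is unknown. The table also has 4 columns without a name, which were not used. Values of 73 ribosomal protein genes were above 0 in every library.

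From these values, genes at 1 or more in at least 3 of 12 libraries (15400) were kept, transformed as log2(value + 1) and fitted in limma 3.58.1 under R 4.3.3 with 1 mean per group and moderated variances that follow the mean. A fold change on this scale understates that of low genes. Genes were called at 0.05 after Benjamini-Hochberg adjustment of two-sided p-values over all genes tested. The fit was tested on simulated data. FPKM before the spike-in scaling were recovered from the 6 significant digits of the values, within 0.1 of the last digit. Single values per library were compared by exact permutation tests.

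The 8 genes and all lists were chosen with earlier results of these data known. By rule, the text names the 8 genes with every value, the 3 tested genes of highest mean of each leukocyte, chemokine, cytokine and red blood cell list, Lyz1, Ccl7, Ccl12, Cd3d and Cd3g, and the 3 genes most like each of the 8 among those with a mean of at least 5 in a group. Cd74, C1qc, Cd4, Cd5, Insl3, Art3 and Hmgxb3 were named after their values were seen. A gene that the rule names is not reported here. Alternatives were median-ratio scaling, FPKM before the spike-in scaling, pseudocounts of 0.1 and 5, no filter, a filter of 5, the groups of a comparison alone, a replicate block and leaving out each library. Replicate numbers were not used to pair the samples in the main fit. Of 18 same-numbered pairs of libraries, 7 had a correlation of deviations over 0.1. Pairs of unlike number were not compared, so pairing by number was not excluded. A fit without WT LZ replicate 1 and WT P replicate 1 was added after seeing the data.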

Additional observations from a re-analysis of the deposited data

Results flagged for a closer look

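The difference of the KO-labelled effect between the stages was past the threshold for 3 of the 8 genes on the spike-in scale. The effect at P exceeded that at LZ by 2.40 for Ccl2 (SE 0.79, adjusted p = 0.0298 by limma), by 2.07 for Cxcl10 (SE 0.65, adjusted p = 0.0242) and by 1.11 for Ptprc (SE 0.39, adjusted p = 0.0398). After median-ratio scaling the values were 1.75, 0.84 and 0.66, and none was called. Cxcl10 and Ptprc passed the filter only with the KO-labelled P libraries counted. Without WT LZ replicate 1 and WT P replicate 1, 0 of the 8 genes were called on the spike-in scale. The call of Ccl2 was also lost without WT LZ replicate 1, WT LZ replicate 2, KO-labelled LZ replicate 1 or KO-labelled P replicate 2 (adjusted p = 0.0513 to 0.0579). That of Cxcl10 was lost without KO-labelled LZ replicate 3, WT P replicate 1 or KO-labelled P replicate 2 (0.0507 to 0.0570). That of Ptprc was lost without any 1 of 9 libraries, all but WT P replicate 3 and KO-labelled P replicates 1 and 3 (0.0531 to 0.0931).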

How the results depend on the processing

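Over all results and alternatives, 939 values kept their direction and side of the threshold, 53 were no longer past it, 3 passed it newly, 44 changed sign and 22 counts or values moved. Between genotypes at P, the genes called higher numbered 1 after median-ratio scaling and 0 before the spike-in scaling. Those called lower numbered 0 under either scaling, with a pseudocount of 5 and with the 2 groups alone, and 0 to 1 without single libraries. The stage difference of the genotype effects was called for 0 genes under either scaling and with a pseudocount of 0.1, and for 0 to 3 without single libraries. Under median-ratio scaling and before the spike-in scaling, respectively, the P changes were -0.030 and -0.32 for Lyz2, -0.11 and -0.24 for Csf1r and -0.23 and -0.44 for Cd68. Before the spike-in scaling the stage difference was -0.017 for Csf1r and -0.072 for Cd68, and with a pseudocount of 5 it was 0.037 for Cd3e. Median-ratio scaling turned these log2 ratios of summed markers: -0.56 for Sertoli cells in WT between stages, -0.50 (WT stages), -0.79 (KO-labelled stages), 0.13 (genotypes at LZ) and -0.16 (genotypes at P) for leptotene and zygotene, and -0.98 (WT) and -1.78 (KO-labelled) for round spermatids between stages. Rnaseh1 between genotypes at LZ became 0.30. Leaving out libraries gave -0.19 to 0.31 for Ccl8, -1.36 to 0.35 for Lyz2 and -0.41 to 0.057 for Csf1r between genotypes at LZ. At P it gave -1.27 to 0.76 for Ccl8, -0.41 to 0.91 for Lyz2, -0.050 to 0.33 for Csf1r and -0.49 to 0.48 for Cd68. The stage difference ran from -1.41 to 0.62 for Ccl8, -0.76 to 1.68 for Lyz2, -0.11 to 0.59 for Csf1r and -0.17 to 0.91 for Cd68. The cause of these changes was not tested. With the replicate block, the call of Ptprc in the stage difference was lost (1.11, adjusted p = 0.0598) and no other call of the 8 genes changed; correlations of same-numbered libraries ran from -0.167 to 0.259. The stage difference could not be fitted with 2 groups alone, and Ptprc did not pass the filter of 5. Depth is unknown, so values near 0 have no counting limit.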
